A study of Mus musculus with 10 samples.

Results

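The 36 genes described here encode the surface receptors, signalling kinases, transcription factors and killing proteins of T cells and natural killer (NK) cells, together with the checkpoint receptors and ligands that restrain or assist them. They were chosen by symbol, and each was found once in the tables of all 10 tumors, among 35275 listed genes. Summed over the tumors their counts ran from 108 for *Gzma* to 2989 for *Havcr2*, so that 0 of the 36 fell under 10 summed counts. After the filter on low counts 34 could be tested between genotypes, and *Gzma* and *Ifng* could not.

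RNA-seq had been performed on 10 cutaneous tumors of mice, 5 with the genotype label LDHA-/- (called KO1 to KO5) and 5 labelled wild type (WT1 to WT5), each from its own mouse by the series description. The paper states a larger number of sequenced tumors per genotype than the 5 in the series. *Ldha* encodes the lactate dehydrogenase subunit that turns pyruvate into lactate, and the comparison asks which transcripts differ when a tumor lacks it. In the study, Cre under K15-CrePR or Lgr5-CreER acted in hair follicle stem cells, and tumors arose either from engineered alleles, loss of p53 among them, or from DMBA and TPA painted on the skin. Which of these models, which Cre line and which age the sequenced tumors had is not stated, and all groups shared a mixed C57BL6/FVB background and both sexes. Deletion is confined to cells in which Cre was active, and some *Ldha*-null tumors of the study were mosaic for Ldh activity. The labels name squamous carcinoma cells, whereas RNA was taken from fresh tumors with no sorting described, so T cells and NK cells within the tumor can contribute their RNA.

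A T cell recognises peptide on MHC molecules through its T cell receptor, which signals through the CD3 chains and the kinases *Lck* and *Zap70*. CD4 marks helper and regulatory T cells that read MHC class II, and CD8 marks cytotoxic T cells that read MHC class I. NK cells lack a T cell receptor and use activating receptors such as *Ncr1*, but share granzymes and perforin with cytotoxic T cells. Checkpoint receptors such as *Ctla4* and *Pdcd1* (PD-1) dampen activated T cells, and the PD-1 ligand *Cd274* (PD-L1) can be made by tumor cells and myeloid cells alike. Skin tumors of mice are known to hold all of these cells in varying number.

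Total counts were 15052860 to 17398949 in the KO tumors and 12969508 to 17694201 in the WT tumors. *Ldha* RNA was at 246 to 1882 FPKM under the knockout label and 340.1 to 2824 FPKM under the wild-type label, so its level did not separate the labels, which are used below as given. FPKM are fragment counts scaled for the length of the gene and the depth of the library. Some libraries stood apart in tissue content. KO1 held skeletal muscle transcripts, with *Ckm* at 5646 FPKM against at most 4.19 FPKM elsewhere, and *Krt14*, a keratin of basal keratinocytes, reached 28399 FPKM in KO3 and 28691 FPKM in WT5. *Ptprc* (CD45), carried by all leukocytes, was lowest in KO1 and WT5, at 1.88, 37.8, 12.3, 17.9 and 34.7 FPKM in KO1 to KO5 and 11.4, 38.98, 22.6, 15.4 and 6.06 FPKM in WT1 to WT5.

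No T cell, NK cell or checkpoint gene separated the genotypes. In the quasi-likelihood test of edgeR with Benjamini-Hochberg adjustment over all genes, 0 of the 34 tested genes had an adjusted p below 0.05, where 0% of 15176 tested genes were called and the smallest adjusted p was 0.999. At an unadjusted p under 0.05, 0 of the 34 were higher and 0 lower in the KO tumors, against 3.56% of all tested genes higher and 0.395% lower. Much of that share depended on KO1, the library with muscle transcripts. Without it, 151 of 15510 tested genes were higher and 43 lower in the same test. The KO and WT values overlapped for all 34 genes, and 0.185% of all tested genes had groups that did not overlap. There were 18 positive and 16 negative log2 fold changes, with a median of 0.07 beside 0.02 over all tested genes. DESeq2 called 0 of the 34 genes, and 1 gene outside this list.

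These tests leave wide room for differences in either direction. The 95% interval of the log2 fold change stayed within 2-fold for 0 of the 34 genes, was wider than 4-fold for 34 and wider than 8-fold for 26, with widths of 2.16 to 5.88 on the log2 scale. The spread between tumors of a genotype was wide as well. The median SD of log2 CPM (counts scaled to library size) within a genotype was 1.53 over the 34 genes and 0.642 over all tested genes, and 9.34% of all tested genes had an SD above that median. *Foxp3* had the smallest SD, at 0.686, and *Nkg7* the largest, at 2.71.

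**Figure D1:**
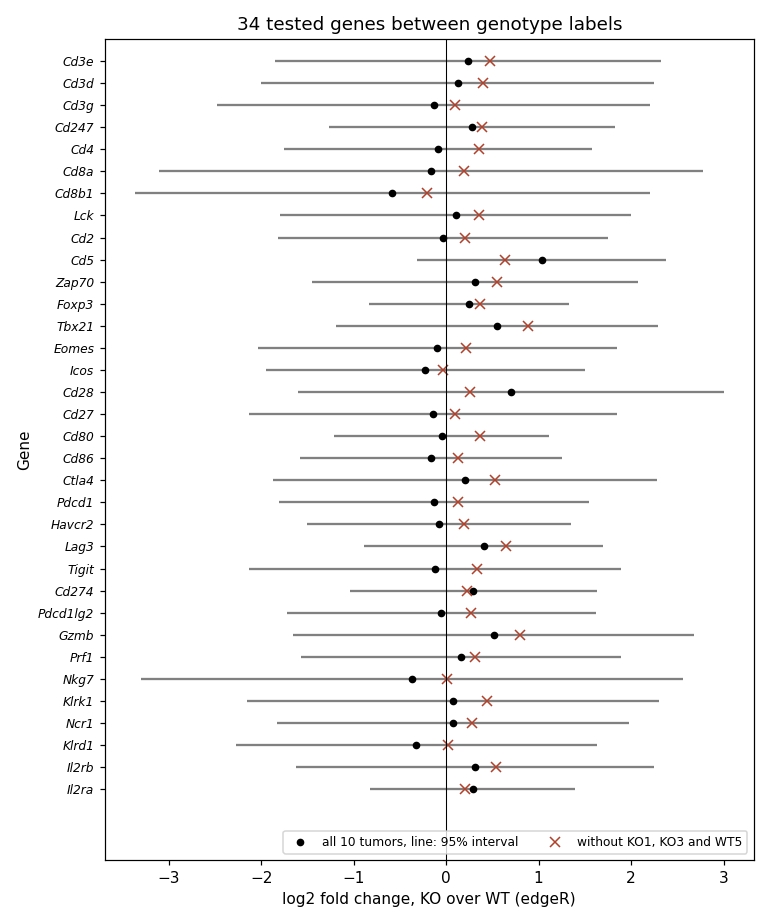
Log2 fold change (x axis, KO over WT tumors, edgeR) of the 34 tested genes (y axis, grouped by role), with black points for all 10 tumors, grey lines for the 95% interval and red crosses for the value without KO1 and KO3 and WT5. Every interval crosses 0, with *Cd5* farthest to the right at 1.03 and *Cd8b1* farthest to the left at -0.58.

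Instead, the genes varied together from tumor to tumor within both genotypes. In FPKM, KO5 held the highest level of 17 of the 36 genes and WT2 that of 9, while KO1 held the lowest level of 15, WT5 of 12 and WT1 of 7. Ranked on log2 CPM, the 4 highest tumors of 19 genes were KO4 and KO5 and WT2 and WT3, and for 33 genes at least 3 of the 4 highest were among these. These tumors were singled out after their values were seen, and 2 of them carry each genotype label. Over the 630 pairs of the 36 genes, the median Spearman rho across the 10 tumors was 0.77, ranging from -0.35 to 0.99, with 620 pairs above 0. Without KO1, KO3 and WT5 the median was 0.71, with 622 pairs above 0. Such correlations share the depth and the cell content of each library and are given as a description. The share of pairs above 0 over all genes is not given here.

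**Figure D2:**
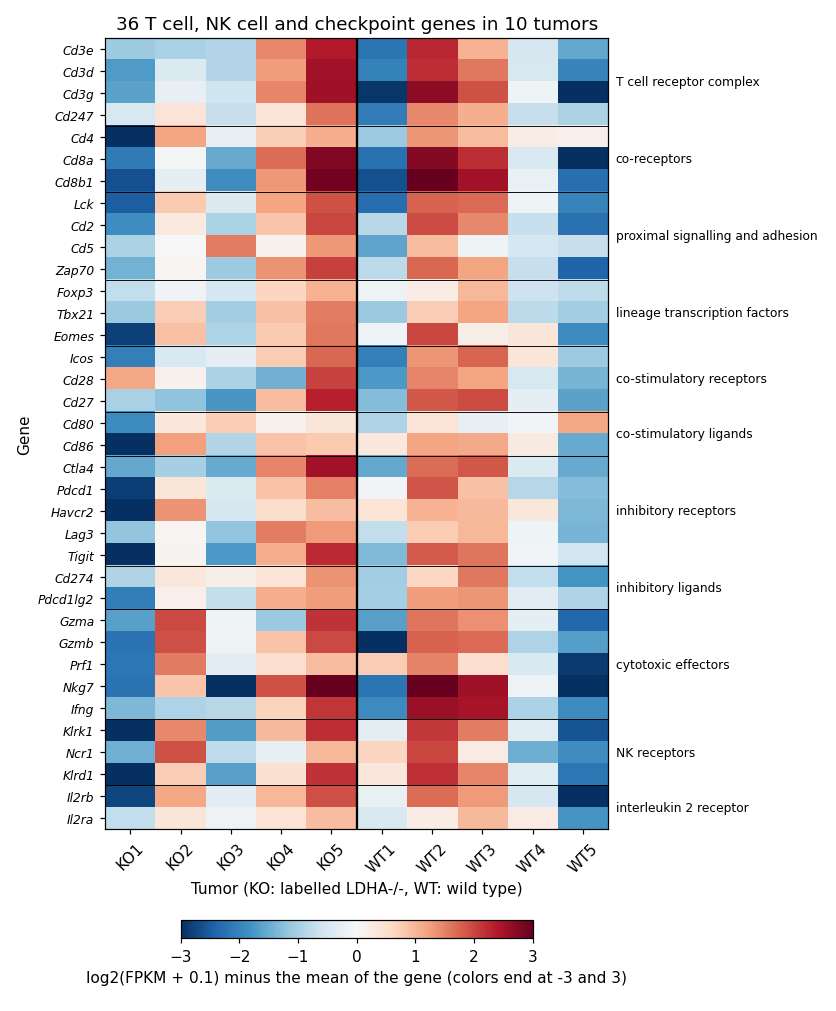
Level of the 36 genes (rows, grouped by role) in the 10 tumors (columns, KO left of the line, WT right), as log2(FPKM + 0.1) minus the mean of the gene, from blue at -3 or below to red at 3 or above. Red fills most rows of KO5, WT2 and WT3, blue those of KO1 and WT5, and in KO2 red is found in *Gzma*, *Gzmb*, *Prf1*, *Ncr1* and *Cd4* while *Cd3e* is blue.

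The CD3 chains carried this pattern most plainly. *Cd3e* (ENSMUSG00000032093, mm10 chromosome 9, 44998743 to 45009590), which is required for assembly of the receptor, was at 0.560, 0.605, 0.648, 3.65 and 7.01 FPKM in KO1 to KO5 and 0.202, 6.45, 2.74, 0.866 and 0.372 FPKM in WT1 to WT5. No tumor lay between 0.866 and 2.74 FPKM, and each genotype had 2 tumors above this gap and 3 below it. The counts behind these values were 14, 15, 14, 87 and 166 fragments and 5, 136, 51, 22 and 8 fragments, so that the lower tumors rest on few fragments. The means were 2.49 ± 1.27 FPKM in KO and 2.13 ± 1.17 FPKM in WT tumors (SEM, n = 5 each), and the log2 fold change was 0.23 (95% interval -1.85 to 2.32). In bulk tissue, fewer T cells and less RNA per T cell cannot be told apart.

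*Cd3g*, the gamma chain, had the highest FPKM of the 4 receptor genes in all 10 tumors, at 1.896, 5.03, 3.92, 16.7 and 35.5 FPKM in KO1 to KO5 and 0.707, 39.1, 22.8, 5.396 and 0.579 FPKM in WT1 to WT5. This order depends on the gene length used, which was 576 bases for *Cd3g* where 1023 are listed. In WT5 its value came from 5 fragments, against 13 for *Cd247*. *Cd3d*, the delta chain, was at 0.521, 1.401, 1.004, 4.74 and 11.6 FPKM in KO tumors and 0.396, 9.27, 5.94, 1.37 and 0.403 FPKM in WT tumors, with the same 4 tumors highest. *Cd247*, the zeta chain that NK cells use too, had a narrower range of 0.166 to 3.45 FPKM. Across the 10 tumors *Cd3d* correlated with *Cd3e* at Pearson's r = 0.972 and Spearman's rho = 0.90 (permutation test, adjusted p = 0.00026 and 0.00546). Their log2 fold changes between genotypes were -0.13 for *Cd3g*, 0.12 for *Cd3d* and 0.28 for *Cd247*.

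The 3 CD3 genes lie side by side on chromosome 9, and *Cd3g* and *Cd3d* are transcribed away from each other with 1354 bases between their starts. The 250 bases before their RefSeq starts (build GRCm38.p6, the same assembly as mm10) are shown because these genes moved together across the tumors. The windows are chr9:45009612-45009861 (minus strand), chr9:44981536-44981785 (plus strand) and chr9:44980432-44980681 (minus strand), and of the 36 genes 27 were found in the promoter table. Capitals mark matches, on either strand, to the ETS motif AGGAAG, the GATA motif AGATAA and the STAT motif TTCNNNGAA, and the ETS and STAT matches in *Cd3d* overlap. 
Cd3e: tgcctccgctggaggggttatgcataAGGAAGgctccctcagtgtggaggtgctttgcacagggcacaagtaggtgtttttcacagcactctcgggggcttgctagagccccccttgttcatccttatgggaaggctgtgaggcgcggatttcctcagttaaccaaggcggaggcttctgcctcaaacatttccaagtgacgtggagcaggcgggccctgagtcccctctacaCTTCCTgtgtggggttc
Cd3d: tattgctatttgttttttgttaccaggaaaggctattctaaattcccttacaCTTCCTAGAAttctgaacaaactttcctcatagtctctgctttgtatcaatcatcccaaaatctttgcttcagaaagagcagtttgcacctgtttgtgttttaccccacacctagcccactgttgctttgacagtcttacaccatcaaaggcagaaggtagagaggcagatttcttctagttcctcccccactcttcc
Cd3g: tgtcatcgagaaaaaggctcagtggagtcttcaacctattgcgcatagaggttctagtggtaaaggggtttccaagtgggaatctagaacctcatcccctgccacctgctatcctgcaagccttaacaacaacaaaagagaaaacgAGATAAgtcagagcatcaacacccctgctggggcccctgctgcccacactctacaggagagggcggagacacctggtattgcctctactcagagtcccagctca
*Cd3e* held 2 ETS matches, 224 and 17 bases before the start. *Cd3d* held an ETS match 198 bases and a STAT match 197 bases before the start, and *Cd3g* a GATA match 104 bases before it. Over 32851 mouse promoters of this length, 29.5% held AGGAAG, 9.99% AGATAA and 7.02% TTCNNNGAA. Among the 27 promoters of the genes described here they were held by 13, 4 and 3. The motifs TGTGGT (RUNX), GTGTGA (T-box) and TGANTCA (AP-1) were searched in the same way, and were held by 9, 4 and 3 of the 27 and by 14.0%, 12.3% and 6.75% of all promoters. A match of a few letters is a description of the window and not a binding site.

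The co-receptors differed in how they followed CD3. *Cd8b1*, the beta chain found on cytotoxic T cells, was at 0.122, 1.02, 0.281, 3.31 and 10.2 FPKM in KO1 to KO5 and 0.123, 12.2, 7.83, 1.08 and 0.188 FPKM in WT1 to WT5. *Cd8a*, its alpha chain, was at 0.0923, 0.707, 0.192, 2.53 and 5.58 FPKM and 0.0747, 5.49, 3.76, 0.508 and 0 FPKM in the same order, with 0 fragments in WT5, a count that allows up to 3 fragments. Both CD8 chains thus stood highest where CD3 was highest, with rho = 0.98 between them over 10 tumors. *Cd4*, which some dendritic cells also express, was at 0.0438, 6.31, 2.28, 4.59 and 5.95 FPKM in KO and 1.24, 6.95, 5.403, 3.23 and 3.05 FPKM in WT tumors. Outside KO1, where 1 fragment was counted, *Cd4* lay between 1.24 and 6.95 FPKM.

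The FPKM of *Cd8a* over that of *Cd4* was 2.11, 0.112, 0.0843, 0.552 and 0.938 in KO1 to KO5 and 0.0602, 0.790, 0.696, 0.157 and 0 in WT1 to WT5. The value of KO1 rests on 5 and 1 fragments. Apart from it, the ratio was over 0.5 in KO4 and KO5 and WT2 and WT3, and under 0.16 in the others. Neither genotype lay above the other. The log2 fold changes were -0.16 (95% interval -3.10 to 2.78) for *Cd8a*, -0.58 (95% interval -3.37 to 2.20) for *Cd8b1* and -0.08 (95% interval -1.75 to 1.58) for *Cd4*. MHC class II genes, which present peptide to CD4 T cells, were highest in the same tumors as CD3, with *H2-Aa* at 24.1, 272, 98.6, 558 and 1018 FPKM and 10.7, 1146, 1012, 204 and 5.55 FPKM. *H2-Ab1* ranged over 32.1 to 939 FPKM.

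**Figure D3:**
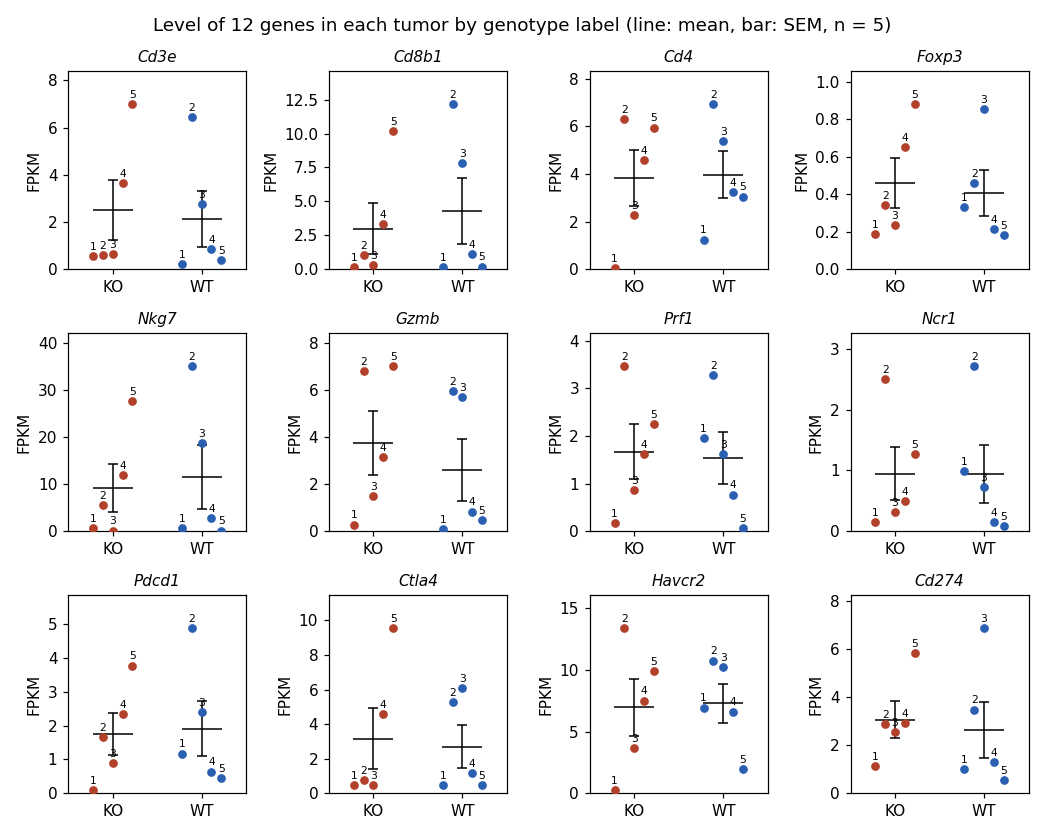
FPKM (y axes, from 0) of 12 of the genes in each tumor by genotype label, with points numbered by tumor, a line at the mean and a bar of 1 SEM to either side (n = 5). In each panel the red and blue points overlap, and KO5 and WT2 or WT3 are among the highest for *Cd3e*, *Cd8b1*, *Nkg7* and *Ctla4*, while KO2 is highest for *Prf1* among the KO tumors and for *Havcr2* among all.

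Among the signalling and adhesion genes, *Lck*, the kinase that phosphorylates the CD3 chains, was at 0.603, 6.64, 2.79, 8.804 and 14.8 FPKM in KO and 0.712, 13.3, 12.6, 3.51 and 0.876 FPKM in WT tumors. *Zap70*, the kinase recruited to them and also present in NK cells, ranged over 0.854 to 10.5 FPKM and 0.386 to 8.38 FPKM, and *Cd2*, an adhesion receptor of T and NK cells, over 0.868 to 14.1 FPKM and 0.648 to 13.5 FPKM. KO2 had 6.64 FPKM of *Lck* at 0.605 FPKM of *Cd3e*, whereas KO4 had 8.804 FPKM at 3.65 FPKM.

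*Cd5* is a scavenger-like receptor that tunes T cell receptor signals and is also found on some B cells. With *Cd3e* it had a rho of 0.64 over 10 tumors and 0.89 without KO1, KO3 and WT5. It was at 0.361, 0.784, 2.47, 0.874 and 2.08 FPKM in KO1 to KO5 and 0.197, 1.61, 0.708, 0.519 and 0.451 FPKM in WT1 to WT5, with its highest level in KO3, where *Cd3e* was low. Its log2 fold change was the largest among the 34 genes, 1.03 (standard error 0.61, 95% interval -0.31 to 2.38), with an unadjusted p of 0.119 and an adjusted p of 0.999 from edgeR. The two-sided exact permutation test gave p = 0.135, the smallest of the 34 genes, where the design allows 0.00794. Without KO3 the value was 0.57, and without WT2 it was 1.56. The groups overlapped.

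Of the lineage factors, *Foxp3* and *Tbx21* were low in every tumor, while *Eomes* reached 3.29 FPKM. *Foxp3*, which defines regulatory T cells, was at 0.186, 0.344, 0.233, 0.650 and 0.883 FPKM in KO and 0.330, 0.459, 0.853, 0.213 and 0.180 FPKM in WT tumors, and had the narrowest spread of the 34 genes. *Tbx21* (T-bet), the factor of interferon-producing T cells and NK cells, ranged over 0.0693 to 0.974 FPKM, and *Eomes*, its relative in cytotoxic T and NK cells, over 0.0214 to 3.29 FPKM. *Eomes* was highest in WT2, at 3.29 FPKM, and reached 1.46 FPKM in KO2. The log2 fold changes were 0.24 (95% interval -0.83 to 1.32), 0.55 and -0.10. Reads of *Foxp3* can be shared with the overlapping genes Flicr and Ccdc22 if strand was not used in counting.

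The cytotoxic genes fell into more than one pattern. *Nkg7*, a granule protein of cytotoxic T and NK cells, followed CD3, at 0.589, 5.61, 0.151, 11.9 and 27.6 FPKM in KO1 to KO5 and 0.596, 35.1, 18.6, 2.77 and 0.152 FPKM in WT1 to WT5. *Prf1* (perforin), which opens the membrane of the target cell, was at 0.168, 3.47, 0.873, 1.61 and 2.24 FPKM and 1.95, 3.28, 1.61, 0.770 and 0.0650 FPKM in the same order. KO2 and WT1 were thus low for *Cd3e* and among the 4 highest for *Prf1*. *Gzmb* (granzyme B), a protease delivered through perforin, was at 0.284, 6.78, 1.499, 3.14 and 7.01 FPKM in KO and 0.0820, 5.96, 5.71, 0.837 and 0.471 FPKM in WT tumors, with KO2 high and WT1 the lowest of all. WT1 had 1.95 FPKM of perforin beside 0.0820 FPKM of granzyme B.

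*Gzma* (granzyme A) had 1, 29, 5, 2 and 32 counts in the KO and 1, 19, 14, 5 and 0 counts in the WT tumors. *Ifng*, the interferon of activated T and NK cells, had 1, 2, 2, 10 and 31 counts and 0, 38, 31, 2 and 0 counts. Both were too sparse for the filter, and *Ifng* counts above 2 were found in the 4 tumors with the most *Cd3e*. Of the tested effectors, *Gzmb* had a log2 fold change of 0.52 (95% interval -1.65 to 2.68), *Prf1* of 0.16 (95% interval -1.57 to 1.89) and *Nkg7* of -0.37 (95% interval -3.30 to 2.56).

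Of the NK receptors, *Ncr1* shared its 4 highest tumors with perforin. *Ncr1* (NKp46; ENSMUSG00000062524, mm10 chromosome 7, 4337724 to 4345164), carried by NK cells and some innate lymphoid cells, was at 0.155, 2.51, 0.314, 0.489 and 1.27 FPKM in KO1 to KO5 and 0.983, 2.72, 0.730, 0.153 and 0.0902 FPKM in WT1 to WT5, from 4, 64, 7, 12 and 31 counts and 25, 59, 14, 4 and 2 counts. Its FPKM was 4.14 times that of *Cd3e* in KO2 and 4.85 times in WT1, and 0.134 to 0.485 times in the other 8 tumors. The *Cd3e* values behind the first 2 ratios rest on 15 and 5 fragments. *Klrd1* (CD94), found on NK cells and activated CD8 T cells, was at 0.327, 6.25, 1.13, 5.14 and 17.04 FPKM and 4.71, 17.5, 10.5, 2.89 and 0.758 FPKM. *Klrk1* (NKG2D), an activating receptor of the same cells, ranged over 0.0616 to 7.66 FPKM and correlated with *Klrd1* at rho = 0.99. For both of these the 4 highest tumors were KO2 and KO5 and WT2 and WT3, with WT1 at 1.28 FPKM of *Klrk1*. None of the 3 passed the test between genotypes, with log2 fold changes of 0.08 (95% interval -1.82 to 1.98), -0.32 and 0.07.

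Summed over *Cd3e*, *Cd3d*, *Cd3g* and *Cd247*, the CD3 complex reached 3.698, 8.42, 6.18, 26.5 and 57.5 FPKM in KO1 to KO5 and 1.47, 57.8, 33.8, 8.24 and 1.85 FPKM in WT1 to WT5. The sum of *Klrk1*, *Ncr1* and *Klrd1* was 0.544, 13.3, 1.87, 8.85 and 25.98 FPKM and 6.97, 27.4, 16.04, 4.25 and 1.03 FPKM in the same order. The first sum over the second was 0.635 in KO2 and 0.211 in WT1, and 1.8 to 6.8 in the other 8. One tumor of each genotype thus had more NK receptor than CD3 RNA per length.

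**Figure D4:**
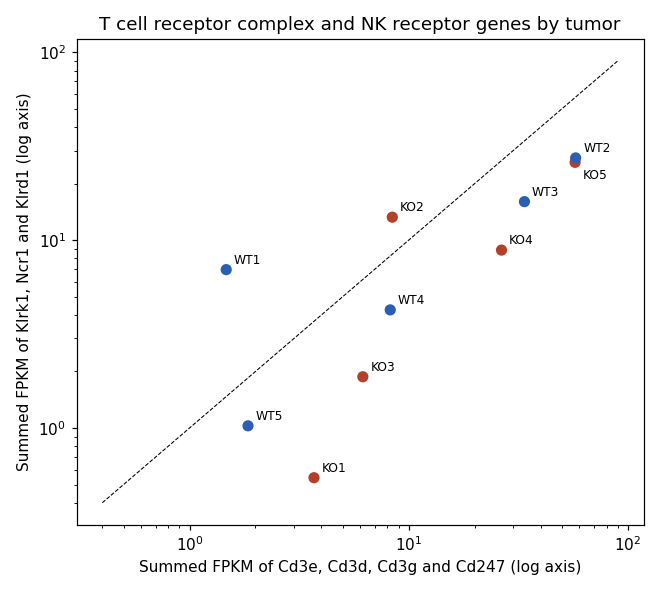
Summed FPKM of the 4 CD3 complex genes (x axis, log scale) against summed FPKM of 3 NK receptor genes (y axis, log scale) in each tumor, red for KO and blue for WT, with a dashed line where the sums are equal. KO2 and WT1 lie above the line and the other 8 tumors below it.

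*Prf1* and *Ncr1* ran closely together, with rho = 0.98 over 10 tumors and 0.96 over the 7 tumors left without KO1 and KO3 and WT5, while *Prf1* correlated with *Cd3e* at rho = 0.27. The 250 bases before their RefSeq starts, chr10:61297586-61297835 and chr7:4337465-4337714 (both plus strand, GRCm38.p6), are shown for comparison with the CD3 genes. Capitals mark matches to AGGAAG (ETS), TGTGGT (RUNX) and GTGTGA (T-box) on either strand, which do not overlap.
Prf1: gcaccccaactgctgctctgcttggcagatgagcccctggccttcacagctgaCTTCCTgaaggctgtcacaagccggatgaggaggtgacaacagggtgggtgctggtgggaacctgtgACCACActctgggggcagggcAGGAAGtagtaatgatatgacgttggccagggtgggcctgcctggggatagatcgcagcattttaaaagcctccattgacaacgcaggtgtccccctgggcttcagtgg
Ncr1: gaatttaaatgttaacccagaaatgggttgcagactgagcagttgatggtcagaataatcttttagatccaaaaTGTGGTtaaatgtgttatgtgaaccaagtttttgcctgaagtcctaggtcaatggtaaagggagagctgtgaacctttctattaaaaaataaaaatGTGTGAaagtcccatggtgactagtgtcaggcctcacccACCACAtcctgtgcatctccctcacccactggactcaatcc
*Prf1* held ETS matches 197 and 109 bases and a RUNX match 130 bases before the start. *Ncr1* held RUNX matches 176 and 41 bases and a T-box match 80 bases before it. Both windows thus held a RUNX match, which none of the 3 CD3 windows held. The first bases after either start were not found within a transcript of that gene in GENCODE M21. The gene starts listed with the counts lie close to the window ends, at 61297836 for *Prf1* and 4337724 for *Ncr1*.

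Inhibitory receptors split in the same way. *Ctla4*, which competes with *Cd28* for its ligands, had the highest rho with *Cd3e* of all other genes, 0.94, and was at 0.479, 0.752, 0.493, 4.58 and 9.55 FPKM in KO1 to KO5 and 0.485, 5.302, 6.07, 1.15 and 0.495 FPKM in WT1 to WT5. *Pdcd1* (PD-1) was at 0.0893, 1.65, 0.895, 2.34 and 3.77 FPKM and 1.18, 4.87, 2.397, 0.644 and 0.449 FPKM. Its FPKM over that of *Cd3e* was 5.804 in WT1, with 5 fragments of *Cd3e*, and 2.73 in KO2, with 15, and 0.159 to 1.38 in the rest. *Tigit*, a receptor of regulatory and exhausted T cells and NK cells, ranged over 0.0597 to 6.796 FPKM, and *Lag3*, which binds MHC class II, over 1.21 to 9.98 FPKM with its maximum in KO4.

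*Havcr2* (TIM-3), a receptor of exhausted T cells that macrophages and dendritic cells also carry, had the most counts of the 36 genes. It was at 0.306, 13.4, 3.67, 7.53 and 9.95 FPKM in KO1 to KO5 and 6.95, 10.8, 10.2, 6.63 and 1.98 FPKM in WT1 to WT5, highest in KO2. Its rho with *Cd3e* was 0.41, and with the macrophage marker *Csf1r* it was 0.82 (0.46 over the 7 tumors). The ratio of *Havcr2* to *Csf1r* FPKM lay between 0.0702 and 0.164 in all 10 tumors, whereas that of *Havcr2* to *Cd3e* ran from 0.547 to 34.3. Whether macrophages or T cells held the transcript was not tested. The log2 fold changes of these 5 receptors were 0.20 (95% interval -1.88 to 2.28) for *Ctla4*, -0.13 (95% interval -1.81 to 1.55) for *Pdcd1*, 0.41 for *Lag3*, -0.12 for *Tigit* and -0.08 for *Havcr2*.

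The PD-1 ligands were present in every tumor. *Cd274* (PD-L1) was at 1.14, 2.86, 2.53, 2.93 and 5.84 FPKM in KO1 to KO5 and 1.03, 3.48, 6.85, 1.295 and 0.571 FPKM in WT1 to WT5, with the maximum in WT3. Its mean was 3.06 ± 0.766 FPKM in KO and 2.65 ± 1.17 FPKM in WT tumors (SEM, n = 5 each), a log2 fold change of 0.30 (95% interval -1.04 to 1.63, exact permutation p = 0.286). Relative to *Ptprc*, it stood at 0.609 in KO1 and between 0.0757 and 0.303 in the others. *Pdcd1lg2* (PD-L2), found mostly on dendritic cells and macrophages, ranged over 0.0349 to 1.31 FPKM, and its log2 fold change was -0.05.

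The co-stimulatory receptors *Icos* and *Cd27* followed CD3, and *Cd28* did so less closely. *Icos*, induced on activated T cells, ranged over 0.255 to 4.83 FPKM, highest in WT3 and KO5. *Cd27*, a receptor of T, NK and memory B cells, was at 1.23, 1.02, 0.667, 4.91 and 12.9 FPKM and 0.949, 9.31, 9.96, 2.06 and 0.753 FPKM, and 4389 bases of its gene overlap Vamp1 on the other strand. *Cd28*, which gives the second signal for activation, was at 0.838, 0.358, 0.117, 0.0532 and 1.61 FPKM and 0.0257, 1.05, 0.851, 0.200 and 0.0589 FPKM, with a level in KO1 that is high for its other T cell genes. The log2 fold change of *Cd28* was 0.70 (95% interval -1.60 to 3.0), and 0.22 without that tumor. For *Icos* and *Cd27* it was -0.23 and -0.15.

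Of the co-stimulatory ligands, *Cd86* on antigen-presenting cells was at 0.926, 25.3, 5.804, 19.5 and 18.6 FPKM in KO and 13.3, 24.6, 23.6, 12.99 and 3.68 FPKM in WT tumors, and had a rho of 0.99 with *Havcr2* and 0.38 with *Cd3e*. *Cd80*, its relative, was the exception among the 36 genes. It was at 0.338, 1.91, 2.62, 1.66 and 1.99 FPKM and 0.752, 2.04, 1.27, 1.43 and 3.53 FPKM, highest in WT5 and KO3, the tumors with the most *Krt14*. Its rho was -0.05 with *Cd3e*, 0.03 with *Ncr1* and 0.61 with *Krt14*, a partner chosen after its values were seen. Without KO1, KO3 and WT5 the rho of *Cd80* was 0.54 with *Cd3e*, 0.68 with *Ncr1* and 0.89 with *Krt14*, so it was no exception there. The log2 fold changes were -0.16 (95% interval -1.58 to 1.25) for *Cd86* and -0.05 (95% interval -1.21 to 1.11) for *Cd80*.

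The interleukin 2 receptor beta chain *Il2rb*, used by T and NK cells for interleukin 2 and 15, was at 0.201, 4.47, 1.51, 3.94 and 7.69 FPKM in KO1 to KO5 and 1.65, 6.36, 4.81, 1.33 and 0.116 FPKM in WT1 to WT5. The alpha chain *Il2ra*, which regulatory and activated T cells carry, ranged over 0.151 to 1.598 FPKM. *Il2rb* stood closer to the NK receptor, with a rho of 0.84 with *Ncr1* and 0.68 with *Cd3e*. Their log2 fold changes were 0.31 (95% interval -1.62 to 2.24) and 0.29 (95% interval -0.82 to 1.39).

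Over all other 34 genes, 22 had a higher rho with *Cd3e* and 12 a higher rho with *Ncr1*. The 12 were *Prf1*, *Klrd1*, *Klrk1*, *Il2rb*, *Pdcd1*, *Havcr2*, *Eomes*, *Cd86*, *Gzma*, *Gzmb*, *Cd4* and *Cd80*. In the 7 tumors, 8 genes were closer to *Ncr1*, all of them among these 12, while *Klrk1*, *Il2rb*, *Pdcd1* and *Eomes* were then closer to *Cd3e*. The rho values of the 2 genes rest on the same tumors and were not tested against each other.

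**Figure D5:**
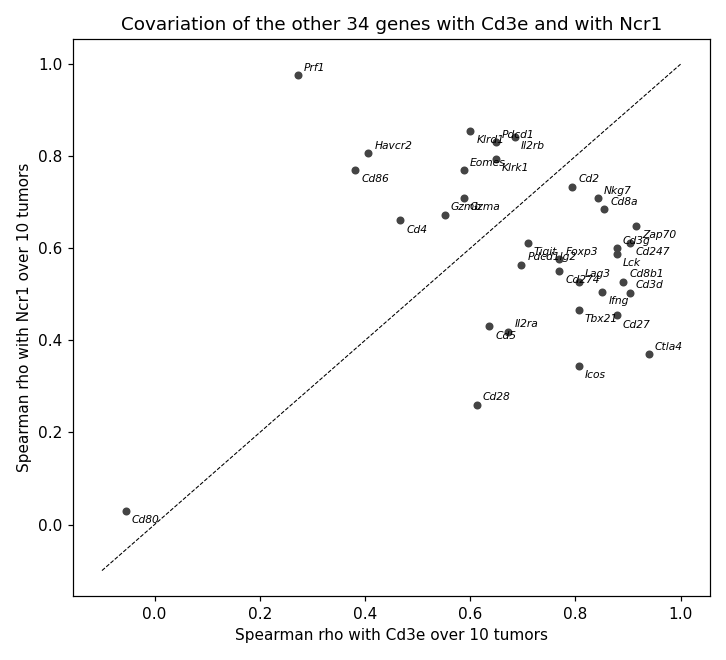
Spearman rho over 10 tumors of each of the other 34 genes with *Cd3e* (x axis) and with *Ncr1* (y axis), with a dashed line where both are equal. *Prf1* lies at 0.27 and 0.98, *Ctla4* at 0.94 and 0.37, and *Cd80* near 0 for both.

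Correlation with *Cd3e* was tested for 13 partners over the 10 tumors, on log2 CPM. After Benjamini-Hochberg adjustment over the 13 pairs, 9 passed by Pearson's r (permutation test with 100000 resamples), namely *Cd3d*, *Cd3g*, *Cd2*, *Lck*, *Cd8a*, *Foxp3*, *Ctla4*, *Nkg7* and *Cd274*. Their r lay between 0.754 and 0.972 and their rho between 0.77 and 0.94, with adjusted p of rho from 0.00273 to 0.0186. Without KO5 and WT2, the tumors farthest from the median of *Cd3e*, their r lay between 0.731 and 0.945. *Il2rb* was past the threshold by rho only (r = 0.644, adjusted permutation p = 0.0579; rho = 0.68, adjusted permutation p = 0.0439), and its r was 0.459 without these 2 tumors. *Cd4* (r = 0.395), *Havcr2* (r = 0.319) and *Ptprc* (r = 0.521) did not pass, with adjusted permutation p of 0.294, 0.395 and 0.146 for r and 0.194, 0.246 and 0.122 for rho. The share of all tested genes that would pass with *Cd3e* in the same way is not given here. The 9 pairs are thus not shown to exceed it.

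The pooled values span the gap in *Cd3e*, with 4 tumors above it and 6 below it. Within the 6 tumors under 1 FPKM of *Cd3e*, a split made after the values were seen, 0 of the 13 pairs passed by an exact permutation test, with r = 0.827 for *Cd3d* (adjusted p = 0.235), 0.794 for *Ctla4* (adjusted p = 0.235) and -0.36 for *Havcr2* (adjusted p = 0.892). The 4 tumors above the gap are too few for a test. Centred on the mean of each genotype, 9 pairs passed, as with all values.

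Other genes of the same pathways were read from lists of T cell receptor signalling, T and NK identity and checkpoint genes. Of 18 further T cell receptor signalling genes 16 were tested, 0 passed edgeR's test, 1 was higher and 0 lower at an unadjusted p under 0.05, and 8 were positive and 8 negative with a median of -0.03. The 1 gene was *Prkcq*, a kinase of T cells that skeletal muscle also expresses, at 38.3 FPKM in KO1 and 0.648 to 2.64 FPKM elsewhere. The next by p were *Rasgrp1*, a Ras activator downstream of the receptor, at 0.859 to 4.895 against 1.21 to 4.97 FPKM, the adaptor *Grap2* at 0.0728 to 1.63 against 0.211 to 1.29 FPKM, and the transcription factor *Nfatc2* at 3.05 to 13.6 against 1.74 to 13.4 FPKM.

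Of 33 listed genes of T and NK identity, 32 were found and 27 tested, with 0 past the test, 13 positive, 14 negative and a median of -0.04. *Rora*, a nuclear receptor used by some T cells and by many other tissues, was higher at an unadjusted p under 0.05, with 72.95 FPKM in KO1, the library with muscle transcripts. *S1pr1*, which guides lymphocytes out of tissue and is also endothelial, was at 3.62 to 11.7 against 2.25 to 7.599 FPKM, and *Tnf*, an inflammatory cytokine, at 0.482 to 7.07 against 0.731 to 2.39 FPKM. Neither passed.

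Of 26 further checkpoint genes 25 were found and 20 tested. None passed, 0 had an unadjusted p under 0.05, and 6 were positive and 14 negative with a median of -0.19. *Cd47*, the signal by which cells avoid phagocytosis, had the smallest p and was at 15.5, 55.6, 24.98, 113 and 111 FPKM in KO1 to KO5 and 112, 96.9, 148, 140.2 and 28.6 FPKM in WT1 to WT5. Its lowest values were those of KO1 and KO3 and WT5. *Tnfrsf18* (GITR) was at 2.78 to 12.4 against 2.15 to 7.29 FPKM, *Tnfrsf4* (OX40) at 3.68 to 23.96 against 8.39 to 25.4 FPKM and *Ceacam1*, a ligand of TIM-3, at 0.601 to 3.27 against 1.31 to 3.81 FPKM.

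Markers of other cells moved with part of these patterns. The sum over 10 pan-leukocyte genes was 69.9 to 1617 FPKM in KO and 255 to 1441 FPKM in WT tumors, and that over 11 macrophage genes 133 to 6499 and 605 to 5772 FPKM, in both cases highest in KO2, the tumor with the most *Havcr2* and *Cd86*. Of 10 listed B and plasma cell genes 9 were found and 5 tested, and 0 passed. Their sum was 3.66 to 40.6 FPKM in KO and 1.99 to 36.2 FPKM in WT tumors, highest in KO5 and WT2, which also had the most *Cd3e*. *Ms4a1* had 33 counts over all 10 tumors, whereas *Cd79b* had 441 with 9.13 FPKM in WT2, *Cd22* had 742 and *Igj* had 1083 with 23.8 FPKM in KO5, and these 4 were chosen after their values were seen. *Cd79a*, with 151 counts, had a log2 fold change of 1.32 (unadjusted p = 0.0171, adjusted p = 0.999, edgeR). *Ccl21a*, made by lymphatic vessels and lymph node stroma, was at 8.72, 34.3, 9.24, 28.8 and 133 FPKM and 129, 115, 15.2, 17.8 and 10.9 FPKM, and *Glycam1*, of lymph node venules, had 7 counts in all, and both were chosen after their values were seen. The part of these cells in the results was not tested.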

How the data were processed

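RNA-seq had been performed on 10 mouse cutaneous tumors. The authors called bases with CASAVA 1.8, aligned reads to mm10 with TopHat2 and used the union mode of HTSeq to count fragments. They deposited whole-number counts, and FPKM computed from these. Versions of the aligner and the counter were not given in the sources used, and no use of strand is described, so that overlapping genes cannot be separated; 13 of the 36 genes overlap another gene in GENCODE M21. The listed gene length gave the deposited FPKM within 1% for 16 of the 36 genes and not for the other 20, so levels of different genes are set side by side with that limit.

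The groups were taken from the genotype labels, with 5 tumors each and 0 columns left unmapped. The 36 genes and all lists were chosen with earlier results of these data known. The test was the quasi-likelihood F-test of edgeR 4.0.16 in R 4.3.3 after TMM scaling, on the 15176 genes that filterByExpr kept at its minimum count of 10 and total of 15, with Benjamini-Hochberg adjustment over all of them and a threshold of 0.05, and its standard errors gave the 95% intervals. The biological coefficient of variation was 63.4%. An exact permutation test (two-sided) was added for single genes, over the 252 assignments of 5 of 10 tumors. Correlations used log2 CPM scaled by TMM with a prior count of 2. P-values measure the spread between these tumors. Counting intervals are not given beside most values, and the reads carry no molecular identifiers. Averaged over the better covered tested genes, the spread between libraries of a genotype far exceeded counting error. Values from few fragments, such as 5 of *Cd3e* in WT1, carry a counting error that is large beside them.

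Every one of the 36 genes is reported. Of each further T cell, NK cell and checkpoint list up to 4 genes with the smallest p were named. The plan for each cell type list was the first 2 genes detected, but some of these genes and some whole lists are not named. Most others are said to have been chosen after their values were seen. The alternatives were other normalization factors, DESeq2 1.42.0, limma 3.58.1 on voom weights or on log2(FPKM + 0.1), other filters, the tumor number as a block, Ptprc as a covariate, and leaving out tumors. Same-numbered tumors of the 2 genotypes did not deviate together, with correlations from -0.51 to 0.55. The edgeR step was tested on simulated data. No pair of libraries of a genotype came near counting noise. Protein sequences were not used here, and a few items are not reported here.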

Additional observations from a re-analysis of the deposited data

Results flagged for a closer look

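Of 72 groups of 5 tumors, 1 for each of the 36 genes and genotypes, 1 held a tumor set apart from the next one by more than 0.71 of the whole range, where chance gives about 1 in 20, or 3.6. This was *Cd4* in KO1, at 0.0438 FPKM from 1 fragment, against 2.28 to 6.31 FPKM in the other KO tumors. The same library held skeletal muscle transcripts and the least *Ptprc*, at 1.88 FPKM, and its part in the low level of *Cd4* was not tested. Without this tumor the log2 fold change of *Cd4* was 0.23 in place of -0.08.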

How the results depend on the processing

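Under 20 alternatives, 0 of the 34 genes passed the adjusted threshold, and the smallest adjusted p of any of them was 0.731. DESeq2 called 1 gene of all those tested, outside the list, and each other alternative 0. With the tumor number as a replicate block 0 genes were called and the median log2 fold change of the 34 genes was 0.26; same-numbered tumors shared only a number, and the block changed no call. The count of genes with an unadjusted p under 0.05 was 0 to 1 when tumors were left out in turn, the 1 being *Cd5* without WT2 (adjusted p = 0.997, edgeR). The median log2 fold change ran from -0.28 without KO5 to 0.73 with limma-voom quality weights, so its size and sign were not stable. The SD of 1.41 between tumors, of the median level of these genes, is a spread of single tumors and not of such a difference. In 5 alternatives the median log2 fold change turned its sign: a mean CPM of at least 5, and leaving out KO5 or WT1, WT4 or WT5. Of 659 values of single genes, 131 had another sign, spread over 27 genes, none of which had passed. Scaling as log2(FPKM + 0.1) moved the median of all genes to -0.14. Of the 13 pairs with *Cd3e*, 9 passed, 10 without TMM or on log2(FPKM + 0.1), and 7 without KO1 and KO3 and WT5, where *Cd274* and *Foxp3* were lost, as they were without KO5. Leaving out tumors in turn gave 7 to 11 pairs, *Il2rb* being gained without KO1 or KO2 or WT1, *Cd4* without KO1 and *Ptprc* without KO2. In the 6 tumors with *Cd3e* under 1 FPKM, a setting chosen after the data were seen, 0 pairs passed, with fewer tumors to test. The cause of the other changes was not tested. Without a filter on low counts *Gzma* and *Ifng* had log2 fold changes of 0.62 and -0.86 (adjusted p = 0.952 and 0.944, edgeR). With 5 tumors a group and the spread found, 0 of the 34 genes had a 95% interval within 2-fold.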

Other observations

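The constant regions of the T cell receptor beta chain did not run in parallel. *Trbc1*, chosen after its values were seen, followed the CD3 genes, at 1.57, 7.92, 2.08, 12.2 and 28.9 FPKM in KO1 to KO5 and 4.09, 34.98, 18.4, 4.86 and 0.521 FPKM in WT1 to WT5. *Trac*, of the alpha chain and chosen in the same way, was at 0.139, 2.38, 0.804, 4.23 and 10.6 FPKM and 0.282, 11.7, 7.65, 1.37 and 2.58 FPKM. *Trbc2*, chosen likewise, was at 16.3, 130.1, 97.4, 58.3 and 81.5 FPKM and 66.2, 69.4, 78.9, 82.3 and 87.7 FPKM, so that WT5, with 0.372 FPKM of *Cd3e* and 0.521 FPKM of *Trbc1*, had 87.7 FPKM of *Trbc2*. Constant-region copies share sequence, and how shared reads were counted is not described.

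*Gzmc* (granzyme C), an effector of NK cells and some T cells chosen after its values were seen, was highest in the tumors in which NK receptor RNA exceeded CD3 RNA, at 85.2 FPKM in KO2 and 41.7 FPKM in WT1, against 0.185 to 12.7 FPKM in the other 8. Its rho with *Ncr1* was 0.39 over the 10 tumors and 0.0 over the 7 tumors without KO1, KO3 and WT5. WT2, with the most *Ncr1*, had 4.96 FPKM of *Gzmc*. *Ccl5*, a chemokine of T and NK cells chosen in the same way, followed CD3 instead, at 0.575, 20.95, 3.43, 31.6 and 63.7 FPKM and 4.36, 59.02, 69.01, 9.14 and 0.667 FPKM. Of 9 listed markers of epidermal gamma-delta T cells 6 were found, with 78 counts of *Tcrg-C1*, 27 of *Trdv4* and 0 of *Tcrg-V5* over all tumors. *Sox13*, a transcription factor that other cells express too and the 1 tested gene of that list, had 960 counts, at 3.500, 1.66, 9.37, 2.24 and 4.56 FPKM in KO1 to KO5 and 1.38, 1.58, 1.603, 1.99 and 1.95 FPKM in WT1 to WT5 (log2 fold change 1.56, unadjusted p = 0.0121, adjusted p = 0.999, edgeR).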
